A study of Homo sapiens with 17 samples.

Results

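IMR-90 is a diploid fibroblast line from human fetal lung that stops dividing for good after heavy DNA damage. The comparison described here is between 2 ages of the damaged culture: 6 RNA-seq libraries taken at week 1 (day 7 in the titles) and 6 taken at week 4 (day 28), 12 of the 17 libraries of the series. Libraries were chosen by their titles. All 12 came from cells that had been exposed for 48 h to 20 µM etoposide, a topoisomerase II poison that leaves DNA double-strand breaks, and were then kept in drug-free, serum-containing medium until harvest. The other 5 libraries are untreated cells collected at week 0, with no drug. They serve below as a reference level, and they also entered the gene filter, the scaling and the spread shared by all groups in the fit. No untreated libraries of week 1 or week 4 were analysed here, so time since the drug and time in culture cannot be told apart. It is one cell line. The labels do not say whether the replicates of a week were separate cultures, so the spread behind each p-value is that between libraries, perhaps a technical one.

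The 12 libraries held 77.2 to 102.8 M counts over named genes. The labelled cell type was checked with marker genes. All 12 fibroblast markers were tested, and their summed level was 43960.1 to 46968 CPM (a gene's share of the library's counts, scaled as counts per M with TMM-adjusted library sizes) at week 1 and 59004 to 62073 CPM at week 4. Epithelial markers summed to 246 to 286 and 207 to 231 CPM, most of it from the keratin gene KRT18, with 6 of 12 (among them KRT5, SFTPC and SCGB1A1) under 0.1 CPM on average over the 12 libraries. Endothelial markers summed to 87.9 to 97.5 and 102 to 138 CPM, chiefly from TEK, a receptor gene, with CDH5, CLDN5 and EMCN under 0.1 CPM on average, and leukocyte markers to 1.92 to 2.90 and 1.65 to 2.71 CPM. Smooth muscle and pericyte markers had the largest sum after the fibroblast markers, 1501 to 1590 CPM at week 1 and 1419 to 1548 CPM at week 4, led by the actin gene ACTG2. Of these 10, 5 were called higher and 2 lower. The 10 most abundant genes took 13.3% to 14.02% of the counts at week 1 and 15.4% to 15.8% at week 4 (exact two-sided permutation test over libraries, p = 0.0022, the smallest it allows, and 0.0087 after adjustment over 4 library measures). One library stood apart more than the others: week 4 replicate 6 lay far from the rest of its group in 16 of the genes named below. Without it 6218 genes were called in place of 6835. Leaving out each library of weeks 1 and 4 in turn gave 6218 to 6520, so such a drop was not particular to this library. The fibroblast sum and the share of the 10 most abundant genes both rose with the matrix genes described below, which are part of each.

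Cellular senescence is a stable arrest of the cell cycle held by inhibitors of cyclin-dependent kinases, p21 and p16 above all, and joined by changes of chromatin, lysosomes, metabolism and secretion. The secreted part is known as the senescence-associated secretory phenotype and includes cytokines, growth factors, proteases and matrix proteins. After DNA damage the arrest is known to build over days to weeks: the p53 to p21 axis acts early, p16 and the secretory programme later.

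Week 4 differed from week 1 in many genes, most of them by a small amount. The counts of 16891 of the 41040 named genes sufficed for a test, and edgeR's quasi-likelihood test called 6835 of them at an adjusted p (Benjamini-Hochberg) under 0.05. These were 3685 genes higher at week 4 (21.8% of those tested) and 3150 lower (18.6%). The counts of list members below are to be read beside these shares. The changes were lopsided in size: 505 genes rose by over 2-fold (2.99%) against 192 that fell by over 2-fold (1.14%), and 84 against 16 changed by 4-fold or more. Most of these were low genes: a filter of at least 5 CPM in 6 libraries left 165 over 2-fold in place of 697. In 2497 of the genes called higher (14.8% of tested genes) and 2320 of those called lower (13.7%), the 6 libraries of one week did not overlap the 6 of the other. The median log2 fold change over all tested genes was 0.01. On the first principal component of the 12 libraries, which held 34.6% of the variance, the libraries of the 2 weeks lay apart. The common biological coefficient of variation of the fit, over all 17 libraries, was 11.7%. Among genes over 5 CPM, the median SD between libraries of a week was 0.075 log2 CPM at week 1 and 0.080 at week 4. A fit of the 12 libraries alone called 8268 genes, 4046 higher and 4222 lower.

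**Figure D1:**
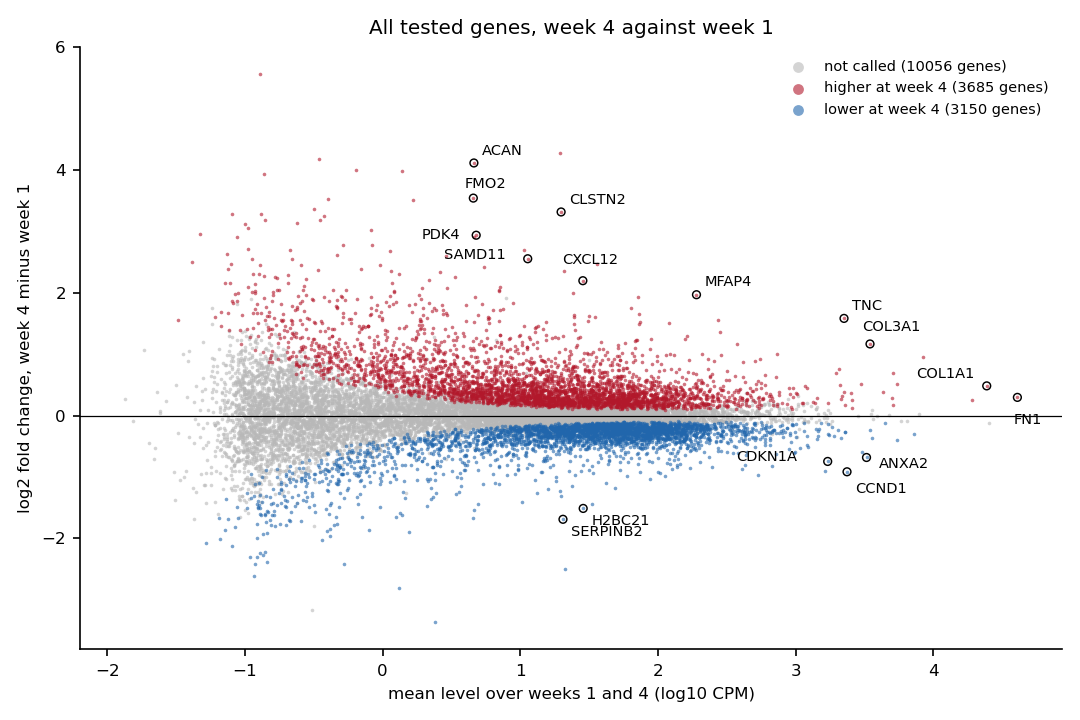
Each point is a tested gene, with its mean level over the 12 libraries (log10 CPM) on the x axis and its log2 fold change, week 4 minus week 1, on the y axis. Red and blue points are the 3685 genes called higher and the 3150 called lower, and the tall red cloud above 1 shows that rises over 2-fold outnumber such falls, 505 against 192.

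The set of expressed kinase inhibitors shifted. CDKN1A (p21), the inhibitor induced first after damage, fell, while CDKN2A (the locus of p16 and ARF), CDKN2B (p15), CDKN1B (p27) and CDKN2C (p18) rose. 4 of 6 tested inhibitors were higher, 2 were lower, and the list's median log2 fold change was 0.53. CDKN1A was at 2049.5 to 2197 CPM (median 2138) at week 1 and 1194 to 1318 CPM (median 1288) at week 4, a fall of 1.68-fold (log2 fold change -0.75 ± 0.04 SE, adjusted p = 5.1e-12). Every week 4 library lay below every week 1 library, and all 12 lay above untreated cells, at 264 to 296 CPM. CDKN2A was at 15.6 to 18.9 CPM (median 17.4) at week 1 and 26.2 to 31.02 CPM (median 29.2) at week 4, and rose 1.65-fold (log2 fold change 0.73 ± 0.06 SE, adjusted p = 8.9e-09). CDKN2B was at 17.8 to 20.4 CPM (median 18.4) at week 1 and 28.1 to 34.4 CPM (median 30.98) at week 4, and rose 1.65-fold (log2 fold change 0.72 ± 0.06 SE, adjusted p = 1.1e-08). For both genes untreated cells were lowest, week 1 between and week 4 highest, with no overlap between the 2 treated weeks. CDKN1B had medians of 19.98 CPM at week 1 and 28.3 CPM at week 4 against 38.96 CPM in untreated cells, and CDKN2C was the other inhibitor that rose. CDKN2D (p19) was called lower, with medians of 5.73 and 5.22 CPM and overlapping libraries, but the call was lost without any of week 1 replicates 1, 3 and 4 or week 4 replicates 3 and 6 (adjusted p = 0.053 to 0.11). CCND1, the cyclin D1 gene, was at 2892 to 3224 CPM (median 3079.8) at week 1 and 1476 to 1700.5 CPM (median 1664) at week 4 and fell 1.88-fold (log2 fold change -0.91 ± 0.06 SE, adjusted p = 5.3e-11), still above untreated cells at 571 to 714 CPM. CCND2 (cyclin D2) had medians of 106 and 114 CPM (adjusted p = 0.23).

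Proliferation genes, which are very low in arrested cells, were somewhat higher at week 4 than at week 1. Of 36 genes of DNA replication and nucleotide supply, 26 rose and 0 fell (median log2 fold change 0.29). Of 36 mitotic genes, 20 rose and 1 fell (median 0.31), and of 21 genes of homologous recombination and crosslink repair, 15 rose and 0 fell (median 0.46). MKI67, the marker of cycling cells, was at 35.6 to 49.2 CPM (median 42.3) at week 1 and 53.7 to 82.6 CPM (median 66.3) at week 4, a rise of 1.56-fold (log2 fold change 0.64 ± 0.10 SE, adjusted p = 1.6e-05), and untreated cells held 346 to 467 CPM. The libraries of the 2 weeks did not overlap, but both weeks stayed far below the untreated range. TOP2A, the topoisomerase that etoposide poisons, rose from a range of 43.6 to 50.4 to one of 56.5 to 79.7 CPM (1.49-fold) against 466 to 555 CPM untreated. POLA1, the catalytic subunit of the primase complex's DNA polymerase, rose 1.71-fold, MCM6 and MCM5 of the replicative helicase 1.403-fold and 1.30-fold, the mitotic gene CENPF 1.67-fold and FANCD2, the crosslink repair gene, 1.49-fold. The kinase gene AURKA went the other way, from a median of 26.9 to 22.7 CPM, with overlapping libraries. In bulk RNA a few more cycling cells and more RNA per cell cannot be told apart.

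The genes of the nuclear envelope and of high mobility group chromatin proteins split 6 up and 4 down of 16. LMNB1, the lamin B1 gene whose loss marks senescent cells, was at 8.31 to 11.4 CPM (median 9.71) at week 1 and 16.8 to 20.2 CPM (median 18.2) at week 4, a rise of 1.87-fold (log2 fold change 0.90 ± 0.07 SE, adjusted p = 1.5e-09) from a level that was 136 to 153 CPM in untreated cells. HMGB2 and TMPO (lamina-associated polypeptide) rose 1.59-fold and 1.47-fold. LMNA (lamins A and C) fell 1.19-fold to 631 to 758 CPM and HMGA1, a chromatin architectural gene, 1.43-fold to 835 to 1123 CPM. So the lamins moved in opposite directions, B1 from a low level upward and A/C from a high level downward.

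Most p53 target genes were lower or not called. Of 38, 19 fell and 5 rose (median log2 fold change -0.15). GDF15, a secreted stress factor, was at 86.6 to 99.1 CPM (median 92.6) at week 1 and 58.1 to 74.6 CPM (median 63.3) at week 4 and fell 1.41-fold (log2 fold change -0.50 ± 0.06 SE, adjusted p = 9.5e-07), against 7.02 to 8.18 CPM in untreated cells. MDM2, the feedback inhibitor of p53, was at 118 to 138 CPM (median 132) at week 1 and 95.5 to 104 CPM (median 99.8) at week 4 and fell 1.31-fold (log2 fold change -0.39 ± 0.05 SE, adjusted p = 1.4e-06). In both genes the 2 weeks did not overlap. The decoy receptor gene TNFRSF10D fell 1.52-fold from 442 to 487 CPM. CPA4, a carboxypeptidase gene of the set given whatever it showed, fell 1.75-fold from 523 to 566 CPM. The exceptions among the p53 targets included PTCHD4, a Patched-domain protein, which rose 1.68-fold from a range of 13.7 to 17.4 to one of 25.01 to 29.1 CPM against 0.415 CPM untreated. DDB2 and SUSD6 rose by 1.16-fold and 1.13-fold with overlapping libraries. Among 25 regulators of apoptosis, 5 rose and 9 fell: the antiapoptotic genes BCL2L1 (BCL-XL) and BCL2L2 (BCL-W) fell 1.54-fold and 1.31-fold, while the pro-death gene BMF and APAF1, the core of the apoptosome, rose 1.83-fold and 1.41-fold.

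Replication-dependent histone genes had the lowest median of the 60 lists, -0.74. Of 33 genes, 27 had enough counts, 14 fell and 1 rose. Most of these genes lack a poly(A) tail and are transcribed in S phase, and H2B promoters are known for an octamer element and CCAAT boxes. The promoter windows of 3 H2B genes that fell are shown because the same pair of elements recurs in them. The RefSeq table (GRCh38.p14) held a promoter for 26 of the 27 tested genes and for 12457 of 16891 tested genes (73.7%), from 250 bases before to 50 after the gene start. All 3 genes lie on the minus strand, and each sequence is given 5′ to 3′ on the gene's strand. Capitals mark CCAAT and the reverse complement of the octamer ATGCAAAT. H2BC21 lies at chr1:149886701-149886779, H2BC12 at chr6:27146877-27146957 and H2BC8 at chr6:26216709-26216786.
H2BC21: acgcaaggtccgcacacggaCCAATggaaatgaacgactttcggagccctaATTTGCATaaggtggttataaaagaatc
H2BC12: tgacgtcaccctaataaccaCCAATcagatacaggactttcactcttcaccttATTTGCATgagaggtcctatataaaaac
H2BC8: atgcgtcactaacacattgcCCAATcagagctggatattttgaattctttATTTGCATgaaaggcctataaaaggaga
The 2 motifs do not overlap in these windows, and both strands were searched. The octamer was found in 15 of the 26 histone promoters (57.7%) and in 180 of the 12457 (1.44%), and CCAAT in 23 of 26 (88.5%) against 35.9%. Of the 14 histone genes that fell and had a promoter in the table, 8 held the octamer and 13 held CCAAT. A match describes letters, not binding.

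H2BC21 was at 39.5 to 44.1 CPM (median 42.4) at week 1 and 13.1 to 16.6 CPM (median 14.7) at week 4 and fell 2.85-fold (log2 fold change -1.51 ± 0.06 SE, adjusted p = 6.9e-14). H2BC12 was at 54.3 to 60.6 CPM (median 56.6) at week 1 and 23.4 to 29.04 CPM (median 26.9) at week 4 and fell 2.14-fold (log2 fold change -1.10 ± 0.06 SE, adjusted p = 1.7e-11). Both stayed above untreated cells, at 3.83 to 4.75 CPM and 5.63 to 7.26 CPM, and the 2 weeks did not overlap. H4C8 fell 3.17-fold and H2BC8, chosen after its values were seen, 2.27-fold. Near-identical copies make single histone genes uncertain.

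Inflammatory genes did not move as a block. Of 32 cytokines and chemokines, 29 were tested, 13 rose and 6 fell (median 0.21, or -0.01 with a stricter filter on low counts, which tests fewer of them). IL6, the best known cytokine of senescent cells, was at 23.99 to 30.8 CPM (median 27.5) at week 1 and 20.8 to 35.4 CPM (median 26.4) at week 4 (log2 fold change -0.02 ± 0.11 SE, adjusted p = 0.89), and the week 1 range lay wholly inside the wider week 4 range. CXCL8 (interleukin 8) was at 7.75 to 12.4 CPM (median 9.42) at week 1 and 12.05 to 20.6 CPM (median 16.7) at week 4 and rose 1.66-fold (log2 fold change 0.73 ± 0.18 SE, adjusted p = 0.0022), with overlapping ranges. CXCL12, a chemokine that fibroblasts make in quantity, was at 8.68 to 11.1 CPM (median 10.4) at week 1 and 41.5 to 52.8 CPM (median 45.9) at week 4 and rose 4.58-fold (log2 fold change 2.20 ± 0.07 SE, adjusted p = 2.7e-15), though untreated cells held more, 70.3 to 83.8 CPM. The alarmin gene IL1B rose 1.25-fold and CCL2, which draws monocytes, 1.23-fold, both with overlapping libraries. IL33 and CX3CL1 rose 3.43-fold and 4.22-fold from under 1 CPM, and CXCL14, chosen after its values were seen, 2.76-fold. On the falling side were CSF2 (the granulocyte-macrophage factor), 2.17-fold lower from 0.964 to 1.60 CPM, LIF, 1.22-fold lower from 176 to 199 CPM, IL32, 1.14-fold lower with overlapping libraries (adjusted p = 0.052 after a gene length correction), and CCL20, below 1 CPM at both weeks. Of the 13 genes that rose, 9 were chemokines, in a list made of cytokines and chemokines, and the chemokine CCL20 was among the falls.

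**Figure D2:**
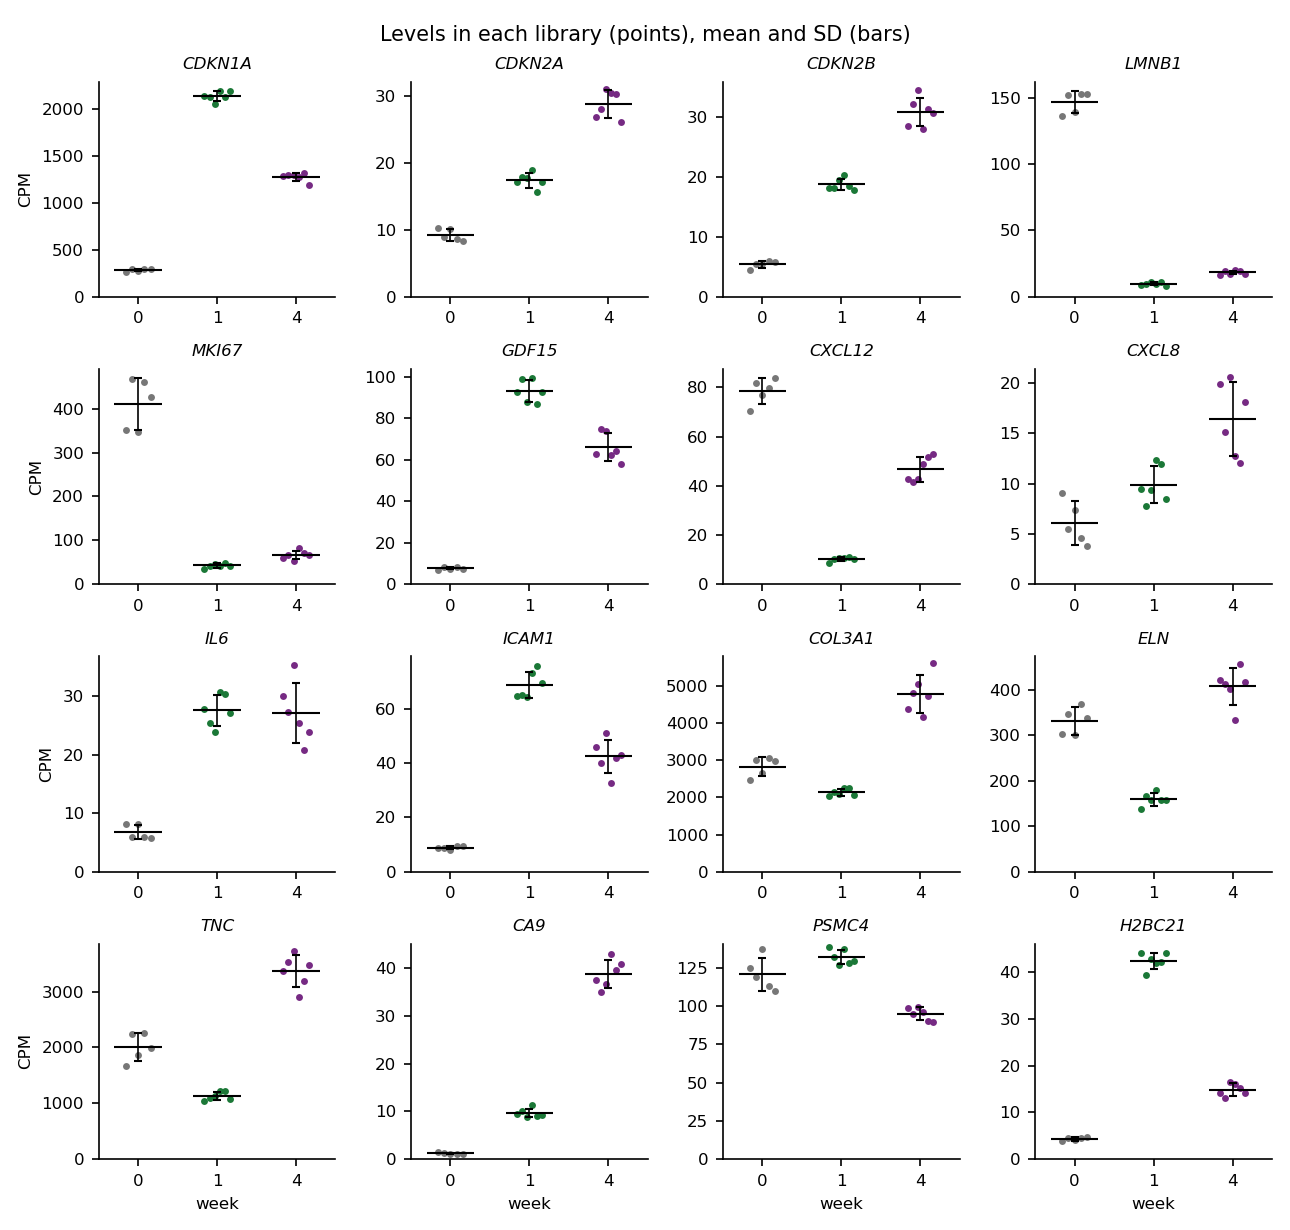
Points are single libraries at week 0 (n = 5), week 1 (n = 6) and week 4 (n = 6), with CPM on a linear axis that starts at 0, the long line the mean and the bar the SD. CDKN1A, GDF15, ICAM1 and H2BC21 come down from week 1 to week 4 without reaching the week 0 level, CDKN2A and CDKN2B go on climbing, and COL3A1, ELN, TNC and CXCL12 turn upward after a low at week 1.

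The NF-kB pathway list was evenly split, 7 up and 7 down of 21 (median -0.11). ICAM1, the adhesion molecule and classic target, was at 64.2 to 75.9 CPM (median 67.3) at week 1 and 32.7 to 51.2 CPM (median 42.4) at week 4 and fell 1.62-fold (log2 fold change -0.70 ± 0.08 SE, adjusted p = 2.6e-07). Its week 4 libraries lay below all week 1 libraries and above untreated cells at 8.06 to 9.47 CPM. SOD2, the mitochondrial superoxide dismutase, and the inhibitor TNIP1 fell 1.44-fold and 1.34-fold. TNFAIP6, a hyaluronan-binding protein, rose 2.78-fold from 0.763 to 1.45 CPM, and the IkB-family genes BCL3 and NFKBIA rose 1.31-fold and 1.25-fold.

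Of 41 tested interferon-stimulated genes (45 in the list), 20 rose and 4 fell, with a median of 0.32. IFITM1, which blocks virus entry, was at 10.5 to 11.4 CPM (median 10.9) at week 1 and 24.6 to 28.4 CPM (median 25.9) at week 4 and rose 2.41-fold (log2 fold change 1.27 ± 0.05 SE, adjusted p = 1.1e-13). GBP2, a guanylate-binding protein, rose from a range of 8.46 to 10.2 to one of 16.6 to 20.4 CPM and USP18, the protease that removes ISG15 from proteins, from a range of 3.30 to 4.32 to one of 6.77 to 9.09 CPM. ISG15 itself fell, from a range of 15.2 to 16.02 to one of 7.34 to 10.3 CPM (1.75-fold), and so did TRIM22 and GBP3, by 1.24-fold and 1.20-fold. The list is therefore split between genes of the same response. Of 17 genes of class I antigen presentation, 9 were tested, 4 rose and none fell by the test, though 3 fell in a fit of the 12 libraries alone. HLA-B rose 1.27-fold with overlapping libraries, and its reads can be shared with its paralogs. ERAP1, which trims peptides, and the regulator NLRC5 rose 1.19-fold and 1.29-fold. Of 11 tested complement genes (16 in the list), 6 rose and 1 fell. C3, the central component, was at 84.2 to 109 CPM (median 92.97) at week 1 and 193 to 273 CPM (median 217) at week 4 and rose 2.37-fold (log2 fold change 1.24 ± 0.07 SE, adjusted p = 2.3e-11), and the protease C1R rose 1.97-fold, both without overlap. CD59, which shields cells from lysis, fell 1.28-fold from 566 to 589.7 CPM.

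Among 32 secreted growth factors, 13 rose and 14 fell (median 0.07). The fallers were GAS6, the ligand of AXL, from a range of 1119 to 1235 to one of 684 to 848 CPM (1.50-fold), the EGF-family gene NRG1 (1.74-fold) and FGF1 (1.58-fold), beside others. The risers included ANGPTL2, an angiopoietin-like factor (1.63-fold), the midkine relative PTN (1.56-fold) and PDGFD (2.13-fold). AREG and IGF1, chosen after their values were seen, rose 6.08-fold and 6.85-fold from medians of 0.869 and 0.111 CPM, and untreated cells had held 20.9 and 0.241 CPM. Binding proteins of insulin-like growth factors split 5 up and 5 down of 14. IGFBP3 was at 1836 to 2110.5 CPM (median 1941) at week 1 and 2069.9 to 2897 CPM (median 2472) at week 4 and rose 1.24-fold (log2 fold change 0.31 ± 0.07 SE, adjusted p = 9.0e-04), with overlapping ranges. IGFBP4 rose 1.20-fold, IGFBP7 and IGFBP2 fell 1.22-fold and 1.32-fold, and IGFBP5 was at 26231 to 27375 and 22766 to 26486 CPM (adjusted p = 0.088, or 0.0030 and lower at week 4 in a fit of the 12 libraries alone). The receptor genes INSR and IGF1R rose 1.67-fold and 1.48-fold. Family members thus moved separately, with no common direction.

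TGF-beta, activin and BMP genes rose more often than they fell, 20 against 5 of 32 (median 0.37). ID1, a target of BMP signalling that blocks differentiation factors, was at 13.5 to 17.9 CPM (median 15.5) at week 1 and 30.8 to 44.6 CPM (median 38.8) at week 4 and rose 2.44-fold (log2 fold change 1.29 ± 0.07 SE, adjusted p = 1.3e-11). The secreted adhesion protein gene TGFBI rose from a range of 3858 to 4062 to one of 6143 to 6605 CPM (1.61-fold). For ID1 both weeks lay below untreated cells, at 97.9 to 109.7 CPM. Against this, the activin antagonists FSTL3 and FST fell 1.47-fold and 1.20-fold. Of 19 tested Wnt ligands and antagonists (22 in the list), 6 rose and 4 fell. The ligand genes WNT5B and WNT16 fell 1.90-fold and 1.47-fold and WNT2 and WNT5A rose 2.91-fold and 1.33-fold, while AXIN2, a target gene, rose 1.72-fold at about 1 CPM. The antagonist DKK3 fell 1.19-fold from 1213 to 1261 CPM. In the Notch pathway 8 of 13 tested genes rose and 1 fell, by over 2-fold, a call lost after a gene length correction. The target gene HEY1 rose 2.68-fold, the ligand gene DLL4 2.90-fold and the coactivator gene MAML2 1.57-fold. At week 4 HEY1 (2.09 to 3.29 CPM) and DLL4 (4.74 to 8.53 CPM) were still below untreated cells, at 6.03 to 7.98 and 24.9 to 28.3 CPM.

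**Figure D3:**
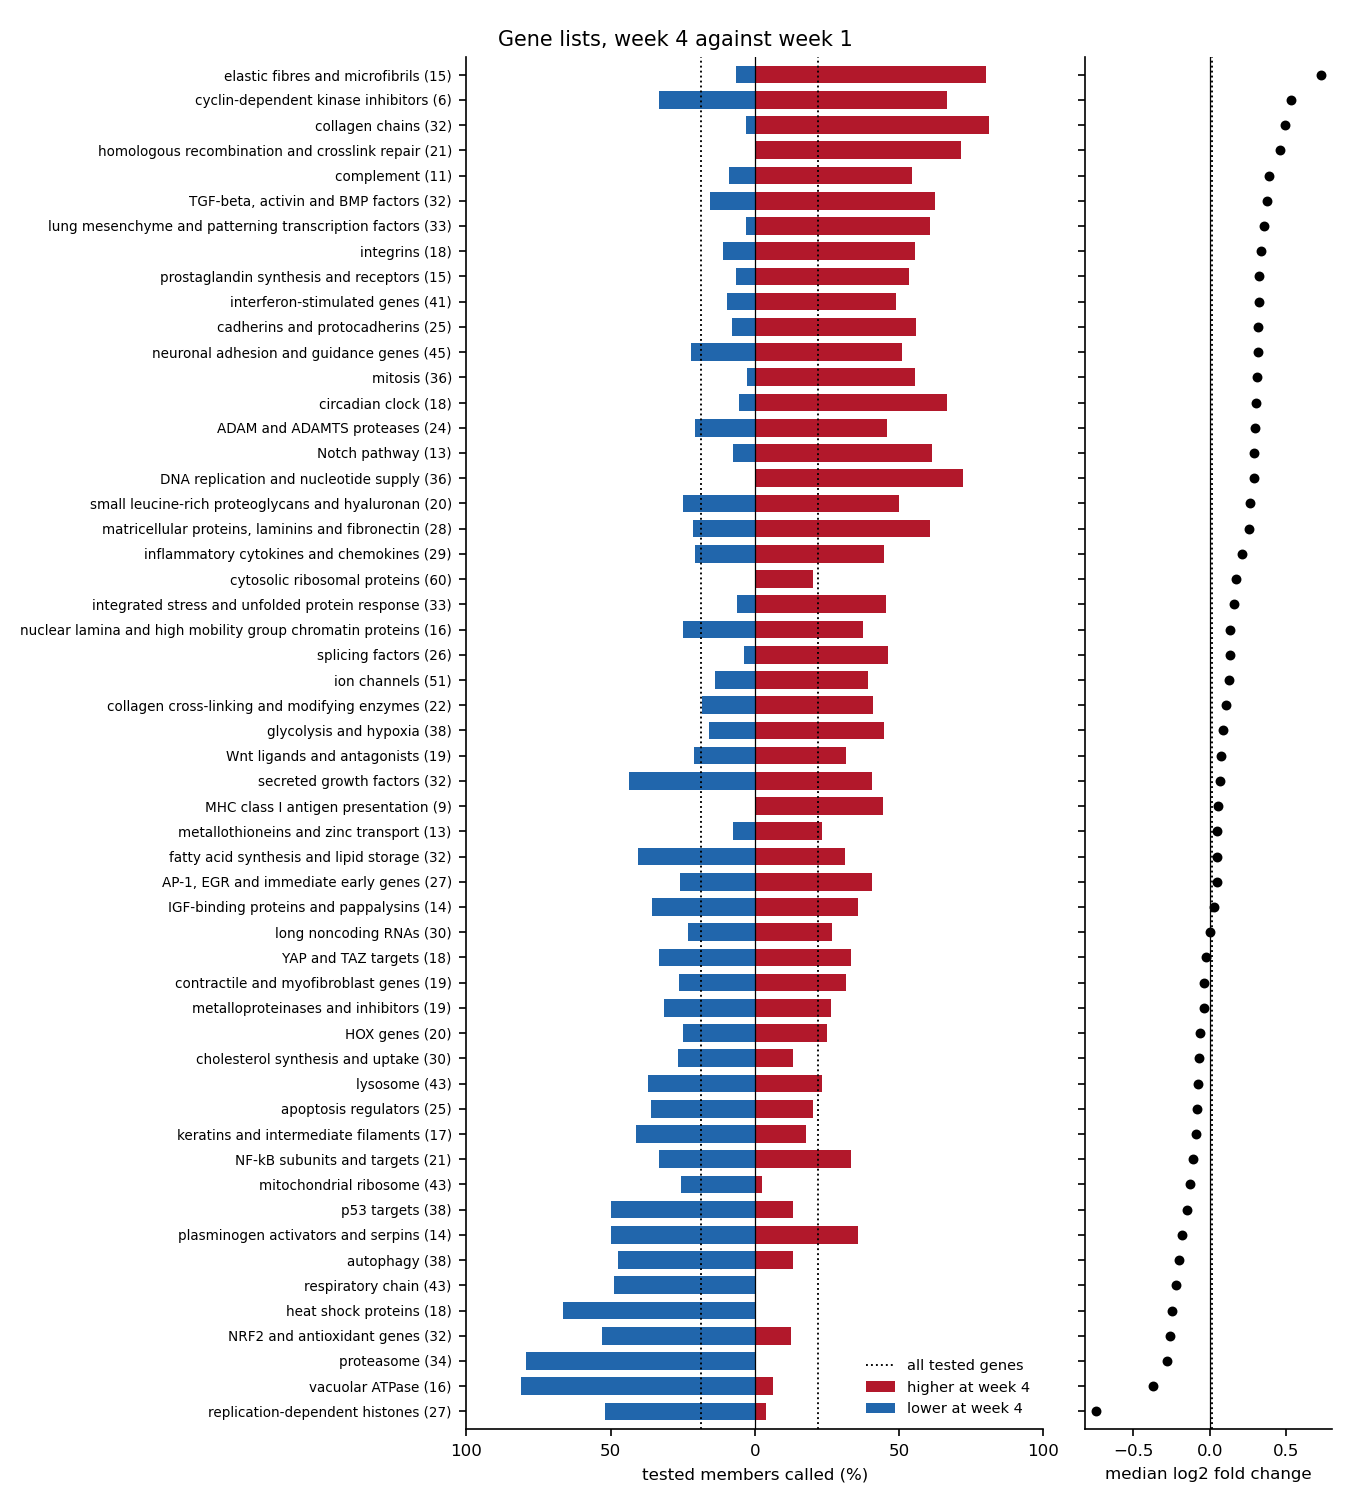
Bars give the percent of each list's tested members (number in brackets) called higher (red, right) or lower (blue, left) at week 4, and dots the list's median log2 fold change. Dotted lines mark all tested genes, 21.8% higher, 18.6% lower and a median of 0.01, and the lists run from replication-dependent histones at the bottom to elastic fibres at the top.

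Genes of the extracellular matrix held the broadest rise. Of 33 collagen chains, 32 were tested, 26 rose and 1, COL25A1, fell (median 0.49). COL25A1 was at 0.153 to 0.340 CPM at week 1, and its call was lost without any of week 1 replicates 2, 3, 5 and 6 or week 4 replicates 1 to 4 (adjusted p = 0.051 to 0.086). COL3A1, the chain of type III collagen, was at 2034 to 2253 CPM (median 2117) at week 1 and 4172 to 5623 CPM (median 4770.3) at week 4 and rose 2.25-fold (log2 fold change 1.17 ± 0.07 SE, adjusted p = 1.2e-11). COL1A1 and COL1A2, the chains of type I, rose 1.399-fold and 1.19-fold: COL1A1 was at 19363 to 21139 CPM (median 20304) at week 1 and 27645 to 29275 CPM (median 28447) at week 4, and COL1A2 at 16951 to 18021 CPM (median 17571) at week 1 and 20258 to 21318 CPM (median 20968) at week 4. COL6A3, of the beaded type VI filaments, rose 1.94-fold and COL16A1, which joins larger fibrils, 1.85-fold. In each of these genes the lowest week 4 library was above the highest week 1 library. Untreated cells held 2459 to 3074 CPM of COL3A1 and 15138 to 18594 CPM of COL1A1, so the week 4 level was above the untreated one in both. Per kilobase of gene length as the files give it, COL1A1 went from a mean of 2260.2 to 3161 CPM and COL3A1 from 316 to 709.8 CPM.

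Elastic fibre genes had the highest median of the 60 lists, 0.72, with 12 of 15 up and 1 down. ELN (elastin) was at 137 to 180.2 CPM (median 158) at week 1 and 335 to 458 CPM (median 415) at week 4 and rose 2.56-fold (log2 fold change 1.36 ± 0.07 SE, adjusted p = 3.7e-12), against 299.9 to 370.2 CPM in untreated cells. MFAP4, a microfibril glycoprotein, was at 72.8 to 83.5 CPM (median 77.5) at week 1 and 248 to 336 CPM (median 313) at week 4 and rose 3.91-fold (log2 fold change 1.97 ± 0.06 SE, adjusted p = 2.7e-15), and FBLN1 (fibulin 1) and EFEMP1 (fibulin 3) rose 2.93-fold and 1.85-fold. For ELN, MFAP4 and FBLN1 the week 1 libraries lay below untreated cells. EMILIN2 was called lower at under 1 CPM, with overlapping libraries, and the call was lost without any of week 1 replicates 1 and 4 or week 4 replicates 3 and 6 (adjusted p = 0.070 to 0.10). Of 28 tested matricellular, laminin and fibronectin genes, 17 rose and 6 fell. TNC (tenascin C), a protein of wounds and of developing tissue, was at 1039 to 1212 CPM (median 1106) at week 1 and 2911 to 3722 CPM (median 3422) at week 4 and rose 2.995-fold (log2 fold change 1.58 ± 0.07 SE, adjusted p = 2.8e-13). POSTN (periostin) and NID1, a basement membrane linker, rose 2.26-fold and 2.02-fold, and FN1 (fibronectin) rose 1.23-fold from a range of 32736 to 39190.2 to one of 41523 to 48539.8 CPM without overlap. CCN1, NID2 and SPARCL1 fell, the last at under 0.4 CPM. Of 20 small leucine-rich proteoglycans and hyaluronan genes, 10 rose and 5 fell: BGN (biglycan) rose 2.01-fold from a range of 452 to 523 to one of 927 to 1007 CPM, FMOD (fibromodulin) 1.87-fold and HAS2 (hyaluronan synthase) 1.77-fold, whereas CEMIP and HYAL2, which degrade hyaluronan, fell 1.53-fold and 1.19-fold, and its receptor CD44 fell 1.21-fold.

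**Figure D4:**
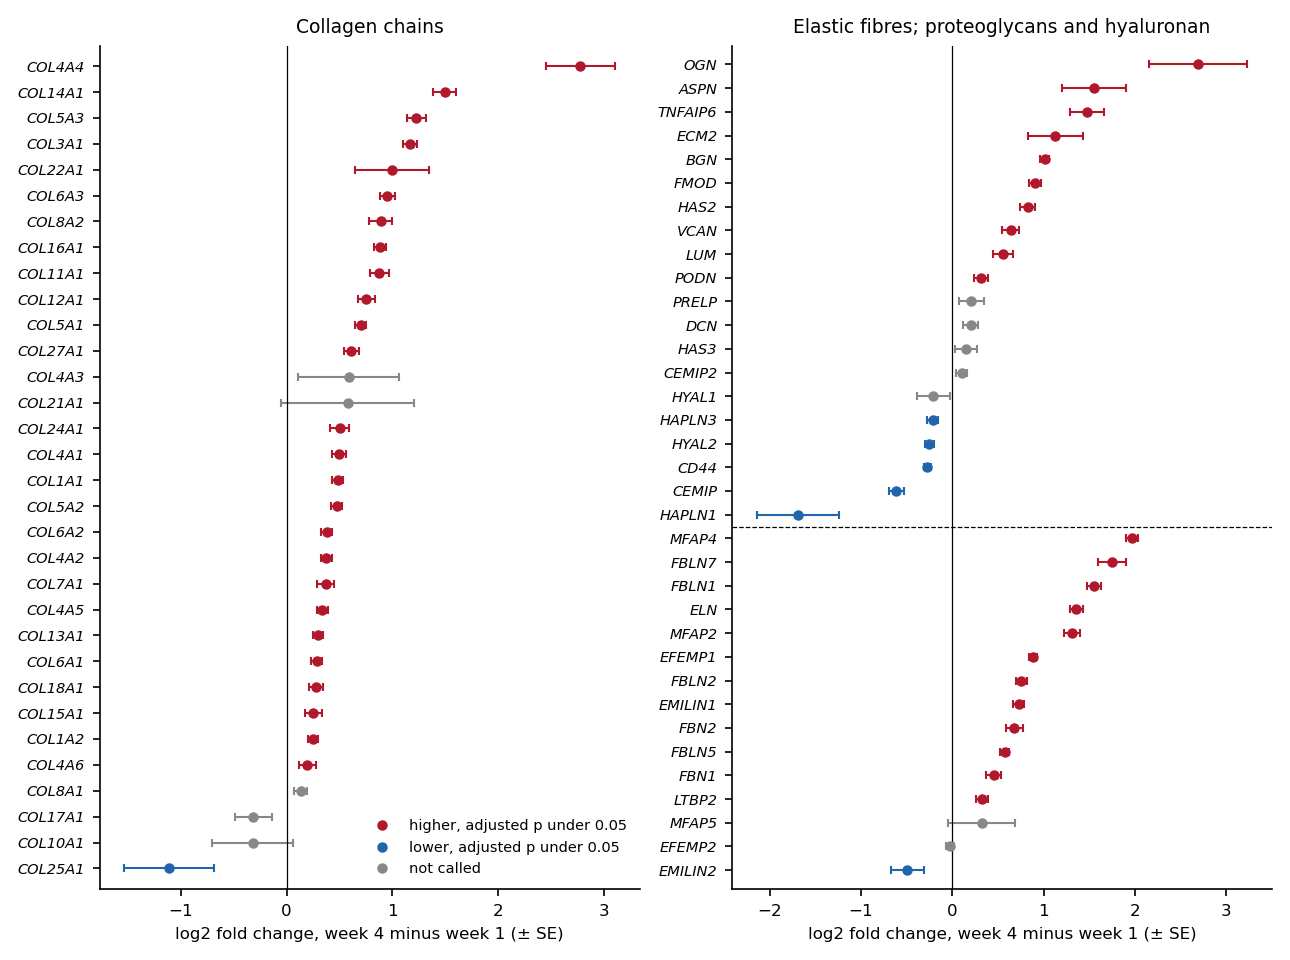
Log2 fold changes, week 4 minus week 1, with their standard errors, for tested collagen chains (left) and for tested genes of elastic fibres (right, below the dashed line) and of proteoglycans and hyaluronan (right, above it). Red points passed the test as higher and blue as lower, and most collagen and elastic fibre genes lie to the right of 0.

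Enzymes that finish collagen were mixed, 9 up and 4 down of 22 (median 0.10). PCOLCE, the enhancer of procollagen C-proteinase, rose 2.83-fold from a range of 60.2 to 68.5 to one of 168 to 195 CPM, ADAMTS2, the N-proteinase, 1.87-fold and SERPINH1, the collagen chaperone, 1.37-fold. LOX (lysyl oxidase) was at 2011 to 2276 CPM (median 2239) at week 1 and 1726 to 1922 CPM (median 1879.7) at week 4 and fell 1.17-fold (log2 fold change -0.23 ± 0.05 SE, adjusted p = 8.0e-04), and LOXL4 and P3H2, a prolyl hydroxylase, fell 1.44-fold and 1.53-fold, while LOXL3 rose 1.64-fold. The cross-linking enzyme LOX therefore fell while its substrates, collagen and elastin, rose. Of 18 integrin genes, 10 rose and 2 fell: ITGB8 and ITGB3 rose 2.41-fold and 1.50-fold and ITGA4 1.401-fold, and ITGA11 and ITGB1, of collagen receptors, fell with overlapping libraries.

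Matrix proteases and their inhibitors did not follow the matrix genes. Of 19 tested metalloproteinases and inhibitors (22 in the list), 5 rose and 6 fell. MMP1, the interstitial collagenase of the secretory phenotype, was at 162 to 169 CPM (median 164) at week 1 and 83.9 to 105 CPM (median 86.4) at week 4 and fell 1.83-fold (log2 fold change -0.87 ± 0.11 SE, adjusted p = 9.4e-07). Its 6 week 1 libraries were tightly grouped and lay above all of week 4. MMP2, a gelatinase, was at 855 to 910.1 CPM (median 881) at week 1 and 1042 to 1241 CPM (median 1136) at week 4 and rose 1.30-fold (log2 fold change 0.38 ± 0.05 SE, adjusted p = 5.6e-06). MMP3 was at 1.31 to 1.64 and 1.04 to 3.52 CPM (adjusted p = 0.19), and MMP9 rose from under 0.3 CPM to at most 0.933 CPM. The inhibitor genes TIMP1 and TIMP2 fell 1.17-fold and 1.27-fold, TIMP1 from a range of 3537 to 4086 to one of 2790.5 to 3507 CPM. Among 24 ADAM and ADAMTS genes, 11 rose, with ADAMTS15 and ADAM12 at 2.12-fold and 1.97-fold, and 5 fell, with ADAM9, ADAM15 and ADAMTS1 among them. In the plasminogen system and serpin list 5 rose and 7 fell of 14 tested. SERPINB2 (PAI-2) was at 29.8 to 32.4 CPM (median 30.98) at week 1 and 7.75 to 11.3 CPM (median 9.60) at week 4 and fell 3.22-fold (log2 fold change -1.69 ± 0.15 SE, adjusted p = 1.4e-08), and the tissue activator gene PLAT fell 1.44-fold. SERPINE2 and SERPINF1 (PEDF), both protease inhibitors by family, rose 1.89-fold and 2.22-fold. SERPINB2 came down without overlap between the 2 weeks and stayed above untreated cells (1.88 to 4.70 CPM).

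Contractile genes were split, 6 up and 5 down of 19 (median -0.04), or 5 up and 8 down after a correction for gene length. ACTA2, the smooth muscle actin of myofibroblasts, was at 376 to 431 CPM (median 409) at week 1 and 399 to 529 CPM (median 479.6) at week 4 and rose 1.17-fold (log2 fold change 0.23 ± 0.06 SE, adjusted p = 0.0029), with overlapping libraries. CNN1 (calponin) fell 1.48-fold from a range of 215 to 235 to one of 142 to 171 CPM and the myosin light chain gene MYL9 1.31-fold, while MYH10, a nonmuscle myosin, rose 1.24-fold. MYH11, a defining smooth muscle marker, went from a range of 0.0125 to 0.107 to one of 0.102 to 0.247 CPM, under 0.3 CPM throughout. Of 17 tested intermediate filament genes, 3 rose and 7 fell, with KRT19 falling from a range of 23.4 to 25.8 to one of 8.18 to 16.7 CPM, KRT18 1.25-fold lower and VIM (vimentin) 1.14-fold lower. The fall of the epithelial marker sum given above is that of these keratins. Targets of YAP and TAZ split evenly, 6 up and 6 down of 18: ANKRD1 and F3 (tissue factor) fell 1.84-fold and 1.82-fold, and YAP1 and WWTR1 (TAZ) rose 1.22-fold and 1.21-fold.

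Of 16 tested vacuolar ATPase genes (18 in the list), which encode the proton pump of lysosomes, 13 fell and 1 rose (median -0.37). The promoters of 2 subunit genes that fell are shown because each holds CACGTG, the core of the CLEAR element read by the lysosomal regulators TFEB and TFE3. They are from RefSeq, GRCh38.p14, 5′ to 3′ on the gene's strand, with CACGTG in capitals. ATP6V0B is at chr1:43974876-43974953 on the plus strand and ATP6V0D1 at chr16:67481184-67481243 on the minus strand.
ATP6V0B: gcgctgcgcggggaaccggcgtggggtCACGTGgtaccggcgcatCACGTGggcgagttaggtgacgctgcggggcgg
ATP6V0D1: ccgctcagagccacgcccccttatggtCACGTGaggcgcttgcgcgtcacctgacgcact
CACGTG, which reads the same on both strands and contains ACGTG, was found in 4 of the 11 tested vacuolar ATPase genes with a promoter in the table (36.4%), in 3 of the 8 of these that fell, in 7 of 29 lysosomal genes (24.1%) and in 9.5% of all 12457 promoters. ATP6V0D1 was at 125 to 135 CPM (median 130.3) at week 1 and 82.3 to 95.7 CPM (median 91.1) at week 4 and fell 1.43-fold (log2 fold change -0.52 ± 0.05 SE, adjusted p = 8.5e-09). ATP6V0A1, the membrane subunit, fell 1.62-fold, ATP6AP1 1.30-fold and ATP6V0B, chosen after its values were seen, 1.46-fold, while ATP6V0A2 was the one that rose, with overlapping libraries, a call lost after a gene length correction (adjusted p = 0.21). For ATP6V0D1 and ATP6V0A1 the 2 weeks did not overlap, and week 4 lay near the untreated medians of 82.2 and 30.9 CPM or above them.

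Lysosomal genes in general fell less uniformly, 16 down and 10 up of 43 tested (median -0.07). GLB1, which encodes the beta-galactosidase stained for in senescent cells, was at 90.3 to 101 CPM (median 97.2) at week 1 and 78.8 to 87.7 CPM (median 82.8) at week 4 and fell 1.16-fold (log2 fold change -0.22 ± 0.04 SE, adjusted p = 3.0e-04). LAMP1, a lysosomal membrane protein, fell 1.36-fold from 477 to 510.1 CPM and SMPD1, acid sphingomyelinase, 1.43-fold, while CTSK (cathepsin K), which cleaves collagen, and GAA (acid glucosidase) rose 1.56-fold and 1.23-fold. Of 38 autophagy genes 18 fell and 5 rose (median -0.20). SQSTM1, the cargo receptor p62, was at 401 to 442 CPM (median 425) at week 1 and 227 to 302 CPM (median 286) at week 4 and fell 1.53-fold (log2 fold change -0.62 ± 0.06 SE, adjusted p = 1.1e-08), and MAP1LC3B, the LC3 protein of autophagosomes, fell 1.50-fold from a range of 199 to 215 to one of 136 to 139 CPM. The initiating kinase gene ULK1 rose 1.17-fold and its partner RB1CC1 1.19-fold.

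Of 34 tested proteasome genes, 27 fell and 0 rose (median -0.28). PSMC4, an ATPase of the regulatory cap, was at 127 to 138 CPM (median 131) at week 1 and 89.8 to 99.7 CPM (median 95.6) at week 4 and fell 1.39-fold (log2 fold change -0.48 ± 0.05 SE, adjusted p = 1.0e-07). PSMD3 and PSMD11 of the lid fell 1.38-fold and 1.27-fold, each below all week 1 libraries. These falls were small but nearly uniform, from -0.48 to 0.01 on the log2 scale over the list, with PSME1 the one gene above 0. Of 18 tested heat shock genes, 12 fell and none rose by the test (median -0.25): the small heat shock genes HSPB8 and HSPB6 fell 1.77-fold and 1.66-fold and the co-chaperone gene DNAJB4 1.68-fold. Of 32 NRF2 and antioxidant genes, 17 fell and 4 rose (median -0.26). TXNRD1, thioredoxin reductase and a classic NRF2 target, was at 819 to 903 CPM (median 863) at week 1 and 446 to 523 CPM (median 494) at week 4 and fell 1.76-fold (log2 fold change -0.82 ± 0.04 SE, adjusted p = 5.7e-12), and NQO1, a quinone reductase, and OSGIN1 fell 1.38-fold and 1.79-fold. NFE2L2, the gene of NRF2 itself, rose 1.29-fold, as did SOD3, the extracellular superoxide dismutase, 1.86-fold.

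Nuclear-encoded respiratory chain genes showed 21 falls and no rise by the test among 43 (median -0.22). ATP5F1B, of the ATP synthase, was at 680.1 to 726 CPM (median 690.4) at week 1 and 539.6 to 595 CPM (median 582) at week 4 and fell 1.21-fold (log2 fold change -0.27 ± 0.04 SE, adjusted p = 2.1e-05), and COX8A of complex IV fell 1.25-fold. Mitochondrial ribosome genes were lower in 11 and higher in 1 of 43 tested (median -0.13), while cytosolic ribosomal protein genes were higher in 12 and lower in none by the test of 60 tested (median 0.17). Those 12 were 20% of the list, near the 21.8% of all tested genes called higher. RPL3 rose 1.22-fold. The share of counts in ribosomal protein genes was 3.13% to 3.52% at week 1 and 3.32% to 3.71% at week 4 (exact two-sided permutation test, p = 0.0065, adjusted 0.013). In a fit of the 12 libraries alone, 36 respiratory chain genes were lower and 1 higher, 22 mitochondrial ribosome genes lower and 3 higher, and 44 ribosomal protein genes higher and none lower. Week 0 libraries, in which that share ran from 3.07% to 5.49%, enter the spread shared by all groups in the fit reported elsewhere. Single genes of this class are uncertain because of their pseudogenes. Splicing factor genes rose in 12 of 26 and fell in 1, SRSF5, with overlapping libraries: HNRNPA1 rose 1.41-fold and HNRNPA3 1.27-fold.

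In the list of 38 glycolysis and hypoxia genes, 17 rose and 6 fell (median 0.08), or 19 and 11 in a fit of the 12 libraries alone. CA9, carbonic anhydrase 9 and a textbook target of HIF, is shown with the 45 promoter bases before its gene start (RefSeq, GRCh38.p14, chr9:35673883-35673927, plus strand), where capitals mark the reverse complement of ACGTG, the core of the hypoxia response element.
CA9: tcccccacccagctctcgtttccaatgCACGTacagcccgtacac
ACGTG on either strand was found in 13 of the 33 genes of the list with a promoter in the table (39.4%) and in 25.8% of all 12457, so it is a common string. CA9 was at 8.86 to 11.3 CPM (median 9.37) at week 1 and 34.9 to 42.97 CPM (median 38.5) at week 4 and rose 4.01-fold (log2 fold change 2.002 ± 0.07 SE, adjusted p = 9.1e-15), against 1.04 to 1.38 CPM in untreated cells. Each week lay apart from the others, in the order untreated, week 1, week 4. Carbonic anhydrase 12 (CA12) rose from a range of 51.3 to 53.4 to one of 117 to 135 CPM (2.38-fold), and EGLN3, a HIF prolyl hydroxylase induced by HIF, from a range of 0.678 to 1.58 to one of 4.26 to 7.48 CPM (4.78-fold). PKM (pyruvate kinase) fell 1.28-fold from 3899.7 to 4184 CPM, and HK2 (hexokinase 2) 1.27-fold. The aldolase gene ALDOC, another glycolytic enzyme, rose 1.59-fold from a range of 31.5 to 36.1 to one of 49.1 to 55.8 CPM. ADM (adrenomedullin), also a hypoxia gene, fell 1.14-fold.

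PDK4, a kinase that turns off pyruvate dehydrogenase, was at 0.953 to 1.26 CPM (median 1.12) at week 1 and 5.81 to 11.8 CPM (median 7.73) at week 4 and rose 7.66-fold (log2 fold change 2.94 ± 0.18 SE, adjusted p = 3.4e-11). DDIT4 (REDD1), an inhibitor of mTORC1, was at 89.2 to 105 CPM (median 91.7) at week 1 and 217 to 262 CPM (median 231) at week 4 and rose 2.47-fold (log2 fold change 1.30 ± 0.05 SE, adjusted p = 8.4e-14), with no overlap in either gene. Among 33 genes of the integrated stress and unfolded protein responses, 15 rose and 2 fell (median 0.16): PHGDH, the entry enzyme of serine synthesis, and the pseudokinase gene TRIB3 rose 1.68-fold and 1.36-fold, and ATF5 and PPP1R15A fell. Cholesterol genes were lower in 8 and higher in 4 of 30 (median -0.07). DHCR7, a late enzyme of the pathway, fell 1.37-fold, the transporter gene ABCG1 3.15-fold from 1.64 to 2.26 CPM, and SREBF2, the regulator, was at 174 to 189 and 171 to 195 CPM (adjusted p = 0.75). In a fit of the 12 libraries alone, 15 cholesterol genes were lower and 5 higher. Among 32 genes of fatty acid synthesis and lipid storage 10 rose and 13 fell: PLIN2, which coats lipid droplets, rose 1.55-fold and CPT1A, which imports fatty acids into mitochondria, 1.30-fold, while the desaturase gene FADS3 and ELOVL1 fell 1.88-fold and 1.49-fold. Of 13 tested metallothionein and zinc transport genes 3 rose (23.1%, near the 21.8% of all tested genes) and 1 fell, with MT1X at 1.31-fold.

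Of 33 tested transcription factors of lung mesenchyme and patterning (41 in the list), 20 rose and 1 fell (median 0.35). PRRX1, a mesenchymal homeobox gene, was at 25.9 to 30.9 CPM (median 27.3) at week 1 and 50.005 to 60.1 CPM (median 58.1) at week 4 and rose 2.04-fold (log2 fold change 1.03 ± 0.06 SE, adjusted p = 1.8e-11), and PRRX2 and SOX4 rose 2.29-fold and 2.14-fold. All 3 had been higher in untreated cells, with medians of 80.5, 57.2 and 78.99 CPM, so that week 1 was the lowest point for PRRX1, PRRX2 and SOX4. PITX1, also a homeobox gene, was the one that fell, 1.34-fold from a range of 32.8 to 37.6 to one of 23.7 to 28.2 CPM. HOX genes split 5 up and 5 down of 20 tested (29 in the list): HOXA3 and HOXA5 rose 2.14-fold and 1.63-fold, and HOXC8, HOXB5 and HOXB8 fell. The PDGF receptor genes PDGFRA and PDGFRB, fibroblast markers, rose 1.70-fold and 1.84-fold, and THY1, another, fell 1.20-fold.

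Adhesion genes best known from neurons rose in 23 and fell in 10 of 45 tested (median 0.31), and cadherins in 14 and 2 of 25 (median 0.32). CLSTN2 (calsyntenin 2) was at 3.24 to 3.91 CPM (median 3.71) at week 1 and 32.9 to 39.6 CPM (median 35.8) at week 4 and rose 9.95-fold (log2 fold change 3.32 ± 0.13 SE, adjusted p = 2.0e-14), from an untreated median of 0.0192 CPM. L1CAM rose from a range of 14.3 to 16.7 to one of 42.8 to 53.9 CPM (3.08-fold) and NFASC (neurofascin) 2.43-fold, both higher at each later week. CDH6 and PCDH18 rose 1.89-fold and 2.16-fold from below their untreated levels, and CDH13 fell 1.42-fold. Of 10 markers of neural cells proper, OLIG2, S100B and SOX10 were under 0.1 CPM in the 12 libraries on average, 7 were tested, 2 were called higher and 1 lower. TUBB3, a neuronal tubulin, led them with a mean of 7.43 CPM. The 10 neural markers summed to 10.7 to 14.9 CPM at week 1 and 14.8 to 16.7 CPM at week 4. Ion channel genes rose in 20 and fell in 7 of 51: the stretch-gated channel gene PIEZO2 rose 1.995-fold, and the potassium channel gene KCNJ2 fell 2.46-fold from a range of 25.6 to 30.4 to one of 10.4 to 12.7 CPM. Of 7 tested endothelial markers, 3 were called higher and 1 lower. TIE1, an endothelial receptor gene, rose from a range of 1.399 to 1.95 to one of 7.03 to 10.6 CPM and FLT1 (VEGF receptor 1) 1.41-fold. PECAM1 went the other way, from a range of 0.318 to 1.06 to one of 0.0438 to 0.273 CPM. CDH5 and CLDN5, which define endothelium, were under 0.1 CPM on average.

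Clock genes rose more often than they fell, and immediate early genes were mixed. Of 18 tested circadian genes 12 rose and 1 fell (median 0.30): BMAL1, the core activator, rose from a range of 10.9 to 12.8 to one of 17.4 to 21.2 CPM, the output gene DBP 2.15-fold and BHLHE40 1.401-fold, and NR1D2 fell with overlapping libraries. HLF, chosen after its values were seen, rose 9.53-fold but stayed under 1 CPM. Of 27 tested immediate early genes 11 rose and 7 fell: EGR1 was at 66.9 to 73.2 CPM (median 69.03) at week 1 and 104 to 117 CPM (median 108) at week 4 and rose 1.57-fold (log2 fold change 0.65 ± 0.05 SE, adjusted p = 2.9e-10), and DUSP5 and DUSP1, phosphatases of MAP kinases, fell 1.58-fold and 1.24-fold. In the prostaglandin list 8 rose and 1 fell of 15 tested: PTGIS, prostacyclin synthase, rose from a range of 38.5 to 43.5 to one of 88.2 to 104 CPM (2.35-fold) and PTGS1 (COX-1) 1.56-fold. Of 30 tested long noncoding RNAs 8 rose and 7 fell. LINC-PINT fell from a range of 20.96 to 23.5 to one of 9.08 to 10.6 CPM (2.30-fold), KCNQ1OT1 rose 1.84-fold and CARMN 2.21-fold. Genes that overlap on opposite strands cannot be separated here, because the strand setting is not given in the sources used here.

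The largest rises among genes without overlap that reached 5 CPM were led by ACAN (aggrecan, the proteoglycan of cartilage), at 0.316 to 0.830 CPM (median 0.466) at week 1 and 2.33 to 12.9 CPM (median 9.18) at week 4, a rise of 17.3-fold (log2 fold change 4.11 ± 0.31 SE, adjusted p = 9.2e-10). The week 4 libraries were widely spread in ACAN, yet all lay above week 1. FMO2, a flavin monooxygenase of lung, was at 0.401 to 1.07 CPM (median 0.685) at week 1 and 6.02 to 12.4 CPM (median 7.37) at week 4 and rose 11.6-fold (log2 fold change 3.54 ± 0.24 SE, adjusted p = 1.8e-10). Next to CLSTN2, PDK4, EGLN3, TIE1 and CXCL12 above came FRAS1, a basement membrane protein, CHI3L2, a chitinase-like secreted protein, SAMD11, CHRDL2, a BMP-binding protein, PARM1, EML5, APOE, the lipid carrier, and SLITRK6, a neuronal adhesion gene, with rises between 4.06-fold and 7.54-fold. SAMD11 was at 2.87 to 3.82 CPM (median 3.31) at week 1 and 16.7 to 22.03 CPM (median 19.5) at week 4, CHI3L2 at 2.11 to 3.53 CPM (median 2.74) at week 1 and 16.9 to 21.4 CPM (median 18.01) at week 4 and APOE at 2.08 to 3.21 CPM (median 2.70) at week 1 and 9.52 to 13.1 CPM (median 11.5) at week 4. Their untreated levels differed: SAMD11 had been at 41.1 to 53.8 CPM in untreated cells, above both weeks, and CHI3L2 at 0 to 0.192 CPM, below both.

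The largest falls by the same rule were smaller, from 2.20-fold to 3.22-fold. After SERPINB2, H4C8 and H2BC21 came NSG1, a neuronal endosome gene (2.91-fold), CMKLR2, a chemerin receptor (2.72-fold), and SERPINB7 (2.70-fold), and the rule also named RRAD, KCNJ2, TMEM255B, SYNPO2L, MOK, LINC-PINT, PLCB4, SH2D5 and NEK10. RRAD, a small GTPase of muscle, was at 14.1 to 15.5 CPM (median 14.9) at week 1 and 3.22 to 6.44 CPM (median 5.94) at week 4, and untreated cells held 0.723 to 1.11 CPM. SERPINB7 was at 44.1 to 52.1 CPM (median 49.2) at week 1 and 14.4 to 20.1 CPM (median 18.9) at week 4. RRAD and SERPINB7 came down to between the week 1 and untreated levels. By difference in CPM, without regard to gene length, the largest gains were FN1, COL1A1, COL6A3, COL1A2, COL3A1, TGFBI, TNC, THBS1, COL6A2 and AHNAK, all but the scaffold gene AHNAK encoding matrix proteins. The largest losses included ANXA2, ACTB, CCND1, FLNC, MFGE8, PKM, CDKN1A, TIMP1 and TPM2. ANXA2 (annexin A2, a membrane organiser) was at 3925 to 4170.2 CPM (median 3984) at week 1 and 2143 to 2792 CPM (median 2546) at week 4, MFGE8, a secreted bridge to dying cells, at 2016 to 2153 CPM (median 2128) at week 1 and 997 to 1187 CPM (median 1155) at week 4 and FLNC (filamin C) at 3534 to 3720.0 CPM (median 3618) at week 1 and 2104 to 2576 CPM (median 2438) at week 4, falls of 1.60-fold, 1.86-fold and 1.51-fold. Cytoskeletal genes (ACTB, FLNC, TPM2) thus stood beside p21 and cyclin D1 on the losing side. With a minimum fold change of 2 built into the test (edgeR's glmTreat), 132 genes passed as higher and 18 as lower.

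Gene length went with direction. When tested genes were divided into 10 equal groups by length, then in the group of longest genes as the files give it, 38.8% were higher and 13.1% lower, and in the shortest group 6.86% were higher and 10.4% lower. The median log2 fold change went from -0.03 in the shortest group to 0.14 in the longest. The median length was 4896 bases over all tested genes, 9268 over the collagen chains, 10182 over cadherins, 9557 over neuronal adhesion genes, 4438 over the proteasome, 3025 over the respiratory chain and 797 over the histones. With a smooth length correction in each library 7035 genes were called, 3587 higher and 3448 lower, of which 6263 were called in the same direction without it. The collagen list then held 25 rises and 1 fall, elastic fibres 12 and 1, the proteasome 0 and 27, and the respiratory chain 0 and 21. In 16 of the 60 lists the median log2 fold change moved by more than its spread between libraries, among them the collagens (to 0.43 from 0.49), the cadherins (to 0.21 from 0.32) and the complement genes (to 0.26 from 0.38). Cytosolic ribosomal proteins had 19 rises in place of 12. What sets the relation to length was not tested.

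**Figure D5:**
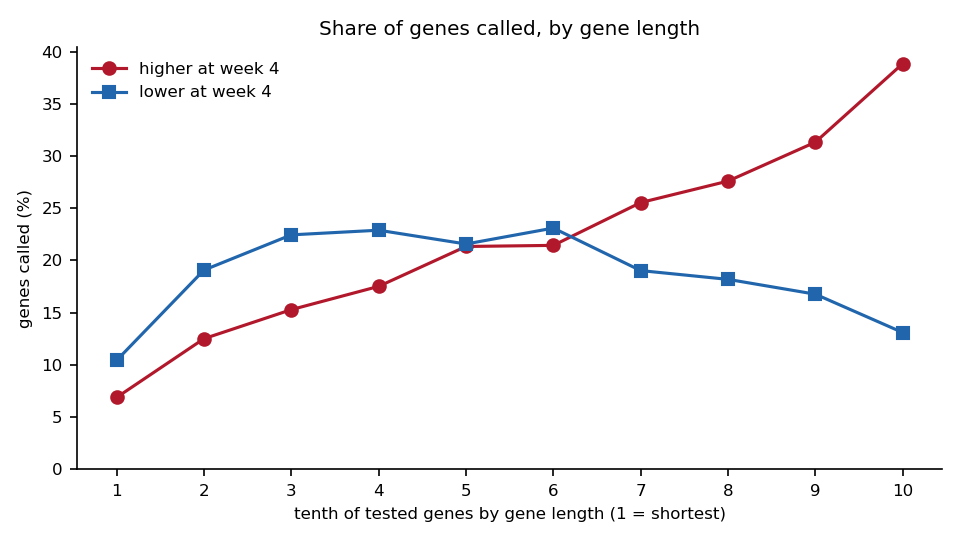
Percent of tested genes called higher (red circles) or lower (blue squares) at week 4, in 10 equal groups of tested genes ordered by gene length, shortest to longest. The share called higher climbs from 6.86% to 38.8%, and the share called lower is 10.4% at the short end, above 20% in the middle and 13.1% at the long end.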

How the data were processed

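RNA from IMR-90 cells was column-purified, treated with DNase and sequenced from Illumina libraries, per the labels' protocols. The authors deposited raw counts per gene symbol for each library, and for 4 libraries a gene length in bases as well. The submitters' processing notes name HISAT2 (2.0.5.2), featureCounts (1.4.6) and the mouse build mm10. Because the deposited symbols are those of human genes, the build is uncertain, and coordinates are printed for RefSeq promoters alone (GRCh38.p14). The sources used here name no annotation, strand setting or rule for reads that map to several places. Between 0.221% and 0.289% of the counts of a library had no gene name and were dropped.

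The test was edgeR 4.0.16 (R 4.3.3). The filter filterByExpr, run by group, left 16891 genes. TMM factors of the 12 libraries were 0.938 to 0.99. One quasi-likelihood model with 3 group means took in all 17 libraries, and the contrast was week 4 minus week 1. Benjamini-Hochberg adjustment ran over all tested genes, with a call at an adjusted p under 0.05. SE is the absolute log2 fold change divided by the square root of F. Exact two-sided permutation tests were used for library measures. Libraries of the same group differed by more than sampling noise in each of 40 pairs (chi-square per gene at least 7.47). The method was tested on simulated counts.

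Members and gene lists were chosen with earlier results of these data known. The genes to be named were 38 given whatever they showed, the 15 largest rises and 15 largest falls among called genes that did not overlap and reached 5 CPM in the higher group, for each list up to 3 risers and 3 fallers by adjusted p, and the 10 largest gains and 10 largest losses in CPM. Some of them are not reported here, and genes outside the rule are said to be chosen later. Other settings tried were RLE scaling, upper-quartile scaling, library totals, DESeq2 1.42.0, limma-voom 3.58.1, all genes unfiltered, at least 5 CPM in 6 libraries, glmTreat, a fit of the 12 libraries with or without replicate number as block, libraries of a single file class, removal of the 20 most abundant genes, correction for gene length, and omission of single libraries. Omission of week 0 replicates 1 and 4 together was added after seeing the data.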

Additional observations from a re-analysis of the deposited data

Results flagged for a closer look

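Among the 272 genes named in the report, each tested in the 6 libraries of week 1 and the 6 of week 4, a single library lay far from the other 5 in 46 of 544 groups, where chance gives about 1 in 20. A library is listed where its gap to the nearest other passed Dixon's critical value for 6 samples. Values are CPM, and explanations were not weighed.

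In week 4 replicate 6, AREG (10.5 against 2.40 to 4.24), CDH6 (349.9 against 285 to 303), TNFAIP6 (3.70 against 2.31 to 2.67) and WNT5A (499 against 425 to 452) were above the other libraries of the week. In the same library CCND1 (1476 against 1619 to 1700.5), CDH13 (71.3 against 86.3 to 88.2), CDKN1A (1194 against 1273 to 1318), CEMIP (575 against 769 to 853), DKK3 (866 against 1075 to 1090.4), ELOVL1 (104 against 112 to 115), HLA-B (80.7 against 97.3 to 107), MFGE8 (997 against 1135 to 1187), PKM (2859.6 against 3128 to 3272), RPL3 (1422 against 1559 to 1606), RRAD (3.22 against 5.62 to 6.44) and TIMP2 (793 against 881 to 928) were below the others. In week 1 replicate 4, CDKN2D (6.90 against 5.35 to 5.84), COX8A (50.2 against 46.98 to 48.1), PCOLCE (68.5 against 60.2 to 63.05), PHGDH (89.6 against 78.8 to 82.4), PTN (58.1 against 52.97 to 54.3), SERPINE2 (402 against 377 to 382), TIMP1 (4086 against 3537 to 3709) and TNFAIP6 (1.45 against 0.763 to 0.997) were above the other libraries of the week. In the same library DNAJB4 (104 against 114 to 119) was below the others. Week 4 replicate 6 thus held 16 of the 46 and week 1 replicate 4 held 9.

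In week 4 replicate 3, ANKRD1 (28.02 against 20.4 to 21.9), C3 (273 against 193 to 220.5), CD44 (2201 against 2037 to 2076) and MYH11 (0.247 against 0.102 to 0.145) were above the other libraries of the week. In the same library MCM6 (31.2 against 33.6 to 34.7) was below the others. In week 1 replicate 1, IGF1 (0.241 against 0.0851 to 0.131) was above the other libraries of the week. In the same library CENPF (17.9 against 22.7 to 24.9), ITGA11 (193 against 206 to 213) and NID1 (129 against 139 to 144) were below the others. In week 4 replicate 1, DLL4 (8.53 against 4.74 to 6.07) was above the other libraries of the week. In the same library ADAMTS2 (205 against 221 to 228) and TMPO (22.3 against 26.5 to 28.9) were below the others. In week 1 replicate 6, ANKRD1 (45.4 against 38.6 to 40.9) and P3H2 (179 against 160.0 to 165) were above the other libraries of the week. In week 1 replicate 3, BCL2L1 (76.1 against 85.7 to 88.8) and DKK3 (1213 against 1245 to 1261) were below the other libraries of the week. In week 4 replicate 2, BCL3 (23.9 against 21.9 to 22.6) was above the other libraries of the week. In the same library LOX (1726 against 1858 to 1922) was below the others. In week 1 replicate 5, CCL20 (0.570 against 0.187 to 0.275) was above the other libraries of the week. In week 4 replicate 5, CXCL14 (1.83 against 0.877 to 1.13) was above the other libraries of the week. In week 4 replicate 4, MMP9 (0.933 against 0.375 to 0.570) was above the other libraries of the week.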

How the results depend on the processing

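The number of genes called stayed within 1.5 times the reported count under every alternative except a test against a minimum of 2-fold, which called 150 genes (132 higher, 18 lower, and 150 over 2-fold by its construction). A stricter filter left 165 genes over 2-fold, since it tests fewer low genes. Leaving out each library of weeks 1 and 4 in turn gave 6218 to 6520 genes called, 3397 to 3536 higher, 2821 to 2988 lower and 620 to 694 over 2-fold. No gene called both in the reported fit and in an alternative was called in the opposite direction. Of all calls, 53.9% were higher in the reported fit, but under 50% without scaling (47.2%), in the 12 libraries alone (48.9%, 4046 higher and 4222 lower) and with the replicate block (48.9%, 4013 and 4197). The log2 fold change of IL6 ran from -0.11 to 0.04 when single libraries were left out and was above 0 without week 1 replicate 4 (0.0093) or 5 (0.0061) or week 4 replicate 5 (0.042) or 6 (0.010), and that of SREBF2 changed sign without scaling (-0.0084) and after the gene length correction (-0.023), all far from the threshold. The replicate numbers showed no pairing (correlations of deviations between same-numbered libraries -0.04 to 0.02, and 0 of 6 week 1 libraries correlated best with their own number). With the replicate number as a block 8210 genes were called, against 8268 in the same 12 libraries without it. When week 0 replicates 1 and 4 were left out together, 8310 genes were called, 4343 higher and 3967 lower. In that fit 44 cytosolic ribosomal protein genes were higher, against 12 as reported. The contractile list held 6 rises and 5 falls as reported, 6 and 7 without scaling, 5 and 7 in the 12 libraries alone and 5 and 8 after the gene length correction. Depth, 77.2 M counts or more per library, limits mainly genes under 1 CPM.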
